A study of Mus musculus with 10 samples.

Results

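Cadherins and protocadherins are the calcium-dependent adhesion molecules that hold like cells to like cells, and their RNA was compared here between mouse medulloblastoma and the cerebellar tissue beside it. The members are the genes whose symbol begins with Cdh or Pcdh and a number, or with Pcdha, Pcdhb or Pcdhg, the 3 protocadherin clusters. Such genes were named alone by 101 probe sets for 56 genes, out of 45137 probe sets and 18193 genes in all, and 59 of these probe sets lie on the 430A chip and 42 on the 430B chip. A further 6 probe sets name several genes of the alpha cluster at once and are described apart. All mice of the series carried CAGGS-CreER, a tamoxifen-activated recombinase driven by a broadly active promoter, and R26-SmoM2, an activated Smoothened that switches on the Hedgehog pathway once recombined. Pups received tamoxifen on postnatal day 10, with 1 mg for each 40 g they weighed. Each of the 2 Affymetrix chips holds 3 medulloblastoma and 2 cerebellum arrays, 10 in all. The cerebellum samples came from the same cross and are called wild type by the labels, which do not give the age at collection or say whether recombined cells were present in them.

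Classical cadherins bind their own kind on the neighbouring cell through repeated extracellular domains and hold the actin cytoskeleton through catenins bound to their tail. They are divided into type I, such as the N-cadherin that neural progenitors use, and type II, whose members are spread in combinations over neuron classes and nuclei. Protocadherins have a similar outer part but bind no beta-catenin. The delta protocadherins act in sorting and axon growth, and the clustered ones are chosen in combinations by single neurons, which lets a neurite recognise its own branches. In the cerebellum, granule neuron precursors divide in the outer layer, leave it as they mature and then form the granule layer below.

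The promoters of the 5 members that passed at the 0.05 threshold under every processing setting and with each array left out are shown, because these are the genes on which the results turn. They are Cdh7, Cdh8, Cdh22 and Pcdh9, which fell, and Pcdh18, which rose. Each line gives the 250 bases before the most upstream start that RefSeq lists on GRCm38.p6, 5′ to 3′ on the gene's strand. Capitals mark matches to the NFI half-site TTGGC on either strand.
Cdh7, chr1:109982650-109982899, plus strand: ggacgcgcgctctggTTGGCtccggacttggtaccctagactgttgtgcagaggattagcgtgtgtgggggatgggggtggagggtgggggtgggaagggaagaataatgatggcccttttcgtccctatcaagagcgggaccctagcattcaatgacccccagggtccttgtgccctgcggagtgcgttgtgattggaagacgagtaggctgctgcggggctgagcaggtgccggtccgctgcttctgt
Cdh8, chr8:99416472-99416721, minus strand: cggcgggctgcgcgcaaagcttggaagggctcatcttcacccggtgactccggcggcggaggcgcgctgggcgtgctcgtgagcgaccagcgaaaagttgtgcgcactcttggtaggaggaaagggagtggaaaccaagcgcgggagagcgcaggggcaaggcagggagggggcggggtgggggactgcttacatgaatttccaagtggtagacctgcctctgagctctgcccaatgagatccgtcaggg
Cdh22, chr2:165234738-165234987, minus strand: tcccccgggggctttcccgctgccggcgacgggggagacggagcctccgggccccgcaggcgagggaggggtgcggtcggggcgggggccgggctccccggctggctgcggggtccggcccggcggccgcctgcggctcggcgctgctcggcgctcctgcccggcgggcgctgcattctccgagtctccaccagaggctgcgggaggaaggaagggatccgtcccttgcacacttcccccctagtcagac
Pcdh9, chr14:93890680-93890929, minus strand: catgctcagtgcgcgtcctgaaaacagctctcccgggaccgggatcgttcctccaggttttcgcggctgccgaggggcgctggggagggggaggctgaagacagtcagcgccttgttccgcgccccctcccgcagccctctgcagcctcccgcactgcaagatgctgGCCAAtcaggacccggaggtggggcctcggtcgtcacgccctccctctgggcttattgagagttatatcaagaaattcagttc
Pcdh18, chr3:49757317-49757566, minus strand: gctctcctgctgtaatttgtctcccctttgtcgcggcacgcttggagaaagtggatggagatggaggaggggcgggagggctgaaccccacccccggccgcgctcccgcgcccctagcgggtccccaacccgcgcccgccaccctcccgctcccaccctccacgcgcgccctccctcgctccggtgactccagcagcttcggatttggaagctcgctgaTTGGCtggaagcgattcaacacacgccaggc
These windows are rich in G and C, from 60.8% in Cdh7 to 77.6% in Cdh22, against a median of 52.0% over 27025 promoters. They hold 13 to 30 CG pairs each, against a median of 6. The half-site, which nuclear factor I proteins bind, occurs once each in Cdh7, Pcdh9 and Pcdh18. It is in 41.9% of all promoters and in 13 of the 22 members with an entry. The E-box CAGCTG, a site of the bHLH factors of the granule lineage, was searched too and has no match in these 5 windows. It is in 12.7% of all promoters and in 2 of the 22 members. The GLI site GACCACCCA, the target of Hedgehog signalling's own factors, is in 0.207% of all promoters and in none of the 22 members with an entry. Motifs were searched on both strands, and none of the 3 holds another whole. Promoter entries were matched for 11 of the 14 members past the test.

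Each probe set has 1 linear intensity per array, with array medians from 33.3 to 35.9 on 430A and from 22.5 to 24.0 on 430B. Tumour numbers are those of each chip. Over the 100 probe sets that both chips hold, the deviations of same-numbered tumours correlated with r of 0.215, -0.684 and -0.520, while 430A tumours 1, 2 and 3 matched 430B tumours 2, 3 and 1 with r of 0.830, 0.862 and 0.729. No number is therefore carried from a chip to the other. On 430B the median of these shared probe sets stood at -0.338 in tumour 3, 0.339 in tumour 1 and 0.290 in tumour 2, in log2 units from the mean of the 5 arrays. Scaling 430B on them shifts the median log2 fold change of that chip by -0.24. Intensities were compared as log2(intensity + 16), which understates the change of dim probe sets. Log2 fold changes are of tumour over cerebellum with their SE, from limma, and a gene passes at a Benjamini-Hochberg adjusted p below 0.05 over its chip. The labels call the replicates biological without tying them to individual mice, so the p-values measure the spread between these samples, which may be technical.

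More of the members that differed were lower than higher in the tumours, as was so over all genes tested. Of the 56 genes, 42 had a probe set above the filter on low values, and 4 of these were higher and 10 lower in medulloblastoma. Among all 14702 genes tested, 10.7% were higher and 16% lower, 26.8% in all, so the members' shares of 9.52% and 23.8% lie near the background. The median log2 fold change of the members was -0.05, the same as that over all genes. By probe set, 4 of 32 on 430A were higher and 7 lower, against 13.1% and 19.0% of the chip, 34.4% in all against 32.2%. On 430B, 2 of 34 were higher and 9 lower, against 7.85% and 9.77% of the chip, 32.4% in all against 17.6%. Those 9 include 3 probe sets of Cdh7, 2 of Pcdh9 and 2 of Pcdh17. A gene can thus enter more than once in all counts by probe set. The groups did not overlap in 16 of the 32 on 430A, 6 above and 10 below cerebellum, against 23.8% and 31.8% of the chip. They did not overlap in 24 of the 34 on 430B, 6 above and 18 below, against 20.8% and 24.7% of the chip. RNA came from pieces of tissue, in which fewer cells of a type and less RNA per cell cannot be told apart. With a single cerebellum array left, which is assumed to vary like the tumours, fewer member genes were called. The share over all genes in such fits is not given here, so a loss particular to the members cannot be told from a chip-wide one. Without tumour 1 of each chip 2 genes were higher.

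**Figure D1:**
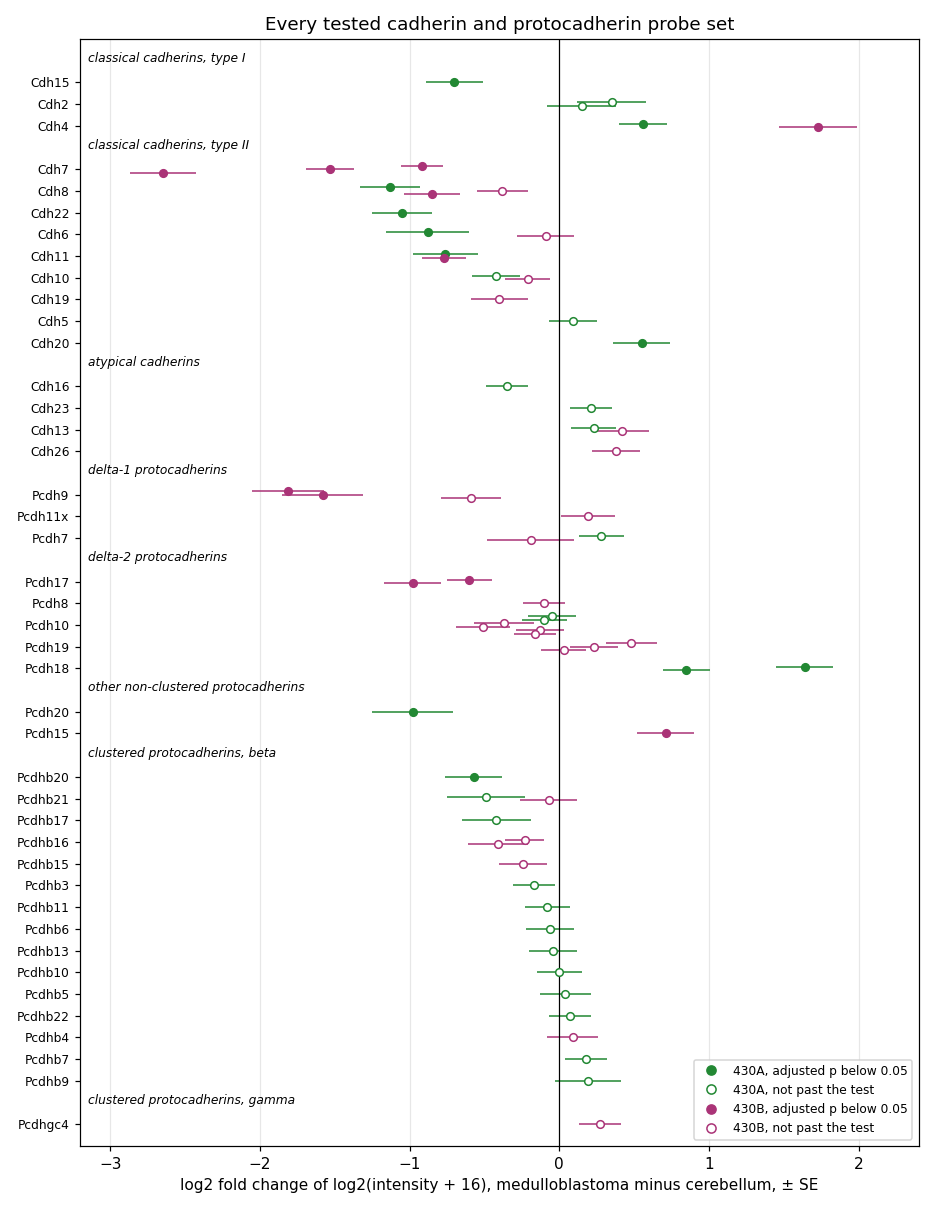
Log2 fold change ± SE (horizontal axis, medulloblastoma minus cerebellum on the log2(intensity + 16) scale) of each of the 66 tested probe sets, in rows by gene and subfamily, in green for 430A and purple for 430B, filled where the adjusted p is below 0.05. The type II cadherins spread to the left as far as -2.65 in Cdh7, Pcdh18 and Cdh4 lie to the right at up to 1.64 and 1.73, and the beta protocadherins stay between -0.57 and 0.19.

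Among the type I cadherins, Cdh4 rose and Cdh15 fell, while Cdh2 did not pass the test. Cdh2, the N-cadherin of neural tissue, had intensities of 168, 241 and 263 in the tumours against 190 and 205 in cerebellum, a log2 fold change of 0.15 ± 0.23 (adjusted p = 0.684). A second Cdh2 probe set gave 0.35 ± 0.23 (adjusted p = 0.305). The groups overlapped in both, with tumour 1 the lowest of the tumours each time. Cdh4, the R-cadherin first described in retina, had 54.6, 62.7 and 62.4 in the tumours against 37.7 and 33.2 in cerebellum on 430A. Every tumour lay above both cerebellum samples, with a log2 fold change of 0.56 ± 0.16 (adjusted p = 0.0174). On 430B another Cdh4 probe set read 218, 202 and 113 in the tumours against 37.4 and 44.1, a larger log2 fold change of 1.73 ± 0.26 (adjusted p = 0.00123). The 2 probe sets shared the direction and differed in size, and the 430B value passed with each array left out. The 430A value was 0.62 without cerebellum 1 and 0.50 without cerebellum 2, and no longer passed (adjusted p = 0.0772 and 0.176, limma).

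Cdh15, the M-cadherin of muscle precursors that granule neurons also carry, read 28.04, 43.9 and 40.2 in the tumours against 60.1 and 80.8 in cerebellum. The groups did not overlap, and the log2 fold change was -0.70 ± 0.19 (adjusted p = 0.0147). It was -0.52 without cerebellum 2 and -0.57 without tumour 1, neither of which passed (adjusted p = 0.174 and 0.0653, limma). Cdh1, the E-cadherin of epithelia, lay under the filter on low values with 2.05, 9.5 and 8.73 in the tumours against 15.1 and 14.3 in cerebellum. Cdh3, the P-cadherin, was also under it, with no array above 12.0. Neither was tested.

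The type II cadherins held the largest falls among the cadherins. Of 11 genes 9 were tested, 5 fell (55.6%) and 1 rose (11.1%), beside 16% and 10.7% of all genes, with a median log2 fold change of -0.76 against -0.05 for all genes. Cdh7 fell most. Its chosen probe set read 23.7, 27.2 and 22.2 in the tumours against 112 and 89.6 in cerebellum, a log2 fold change of -1.53 ± 0.16 (adjusted p = 9.61e-05). Another of its probe sets read 15.9, 17.9 and 6.05 in the tumours against 196 and 137 in cerebellum. That one gave -2.65 ± 0.22 (adjusted p = 2.56e-05), and the remaining one gave -0.92 ± 0.14 (adjusted p = 0.00149). All 3 kept the groups apart and passed with each array left out.

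Cdh8, which marks sets of neurons and their targets, read 30.2, 56.1 and 39.4 in the tumours against 112 and 106 in cerebellum. Its log2 fold change was -1.13 ± 0.20 (adjusted p = 0.00126), with every tumour below both cerebellum samples. Of its 430B probe sets, 1 gave -0.85 ± 0.19 (adjusted p = 0.0102), or -0.72 without cerebellum 1 (adjusted p = 0.112, limma), and the other -0.38 ± 0.17 (adjusted p = 0.176). Cdh22, a cadherin found in pituitary and brain, read 28.4, 35.5 and 29.9 in the tumours, a narrow range, and 61.1 and 108 in the cerebellum samples, which lay far apart. The log2 fold change was -1.05 ± 0.20 (adjusted p = 0.0022). It passed with each array left out, at -1.39 without cerebellum 1 and -0.71 without cerebellum 2.

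Cdh11, common in mesenchyme and also present in brain, was lower on both chips. On 430A it read 25.3, 10.0 and 29.6 in the tumours against 46.5 and 45.2 in cerebellum, with tumour 2 the lowest and a log2 fold change of -0.76 ± 0.22 (adjusted p = 0.0207). On 430B it read 9.32, 12.6 and 8.46 against 31.4 and 25.7, a log2 fold change of -0.77 ± 0.15 (adjusted p = 0.00483). The 2 chips thus gave nearly the same fall. The 430A value was -0.74 without cerebellum 1 and -0.77 without cerebellum 2, where it did not pass (adjusted p = 0.0972 and 0.0924, limma), and -0.51 without tumour 2, where it did. The 430B value was -0.68 without cerebellum 1 (adjusted p = 0.0778).

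Cdh6, known from kidney and from the developing brain, gave an uncertain fall. It read 11.4, 25.2 and 1.92 in the tumours against 42.5 and 27.1 in cerebellum, so tumour 2 came close to cerebellum 2. The log2 fold change was -0.88 ± 0.28 (adjusted p = 0.0341), while the 430B probe set gave -0.09 ± 0.19 (adjusted p = 0.802). The call ended without cerebellum 1, without tumour 1 and without tumour 3, at -0.66, -0.89 and -0.58 (adjusted p = 0.229, 0.0896 and 0.0878, limma). With the brightest probe set for each gene, which is the 430B one, it also ended.

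Cdh20 was the type II cadherin that rose. It read 97.6, 65.5 and 90.6 in the tumours against 50.6 and 53.7 in cerebellum, with no overlap. The log2 fold change of 0.55 ± 0.19 lay just inside the threshold (adjusted p = 0.0489). It was 0.51 without cerebellum 1, 0.58 without cerebellum 2, 0.45 without tumour 1 and 0.50 without tumour 3, and passed in none of these 4 fits (adjusted p = 0.239, 0.190, 0.152 and 0.120, limma). The other tested type II genes did not pass, namely Cdh10 at -0.42 ± 0.16 (adjusted p = 0.0635), Cdh19 at -0.40 ± 0.19 (adjusted p = 0.189) and Cdh5 at 0.09 ± 0.16 (adjusted p = 0.727). Cdh19, a cadherin of the Schwann cell lineage, read 27.5, 26.0 and 23.5 in the tumours against 52.8 and 28.1 in cerebellum, so its difference came mostly from cerebellum 1. Without cerebellum 2 it was -0.73 (adjusted p = 0.0443, limma). Cdh5, the VE-cadherin of endothelium, read 25.3, 24.0 and 35.8 in the tumours against 26.2 and 24.6 in cerebellum. Of 6 tested endothelial markers, 1 was lower, Flt1 (-0.46 ± 0.14, adjusted p = 0.0252), and their summed intensity was 179 to 248 in the tumours and 211 to 222 in the cerebellum samples.

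**Figure D2:**
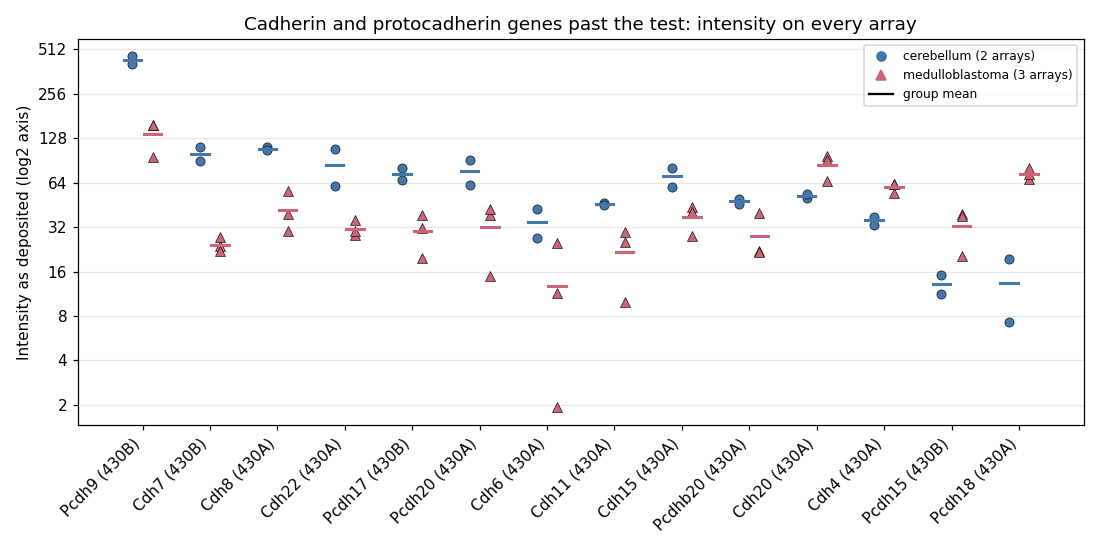
Intensity as deposited (vertical log2 axis) on each array for the 14 genes past the test, 1 probe set per gene with its chip in brackets, ordered by log2 fold change; circles are the 2 cerebellum arrays, triangles the 3 medulloblastoma arrays and bars the group means. The groups are apart in each, closest in Cdh6, where tumour 2 at 25.2 lies next to cerebellum 2 at 27.1; heights are not comparable between probe sets.

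No atypical cadherin passed the test. Cdh13, the T-cadherin that hangs from the membrane by a lipid anchor and has no tail, gave 0.23 ± 0.15 (adjusted p = 0.295) on 430A and 0.42 ± 0.18 (adjusted p = 0.156) on 430B. Another Cdh13 probe set lay under the filter, with 2.60, 9.91 and 2.12 in the tumours against 22.0 and 39.2 in cerebellum, and was not tested. That order is opposite to the 430B one, where the tumours read 33.5, 53.6 and 31.6 and the cerebellum samples 22.7 and 27.0. The probe sets of Cdh13 therefore do not give a common direction. Cdh16, a kidney cadherin, gave -0.35 ± 0.14 (adjusted p = 0.0824), Cdh26 0.38 ± 0.16 (adjusted p = 0.154) and Cdh23, part of the tip link of inner ear hair cells, 0.21 ± 0.14 (adjusted p = 0.320).

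Among the delta-1 protocadherins, Pcdh9 fell. It read 158, 157 and 94.9 in the tumours against 459 and 405 in cerebellum, a log2 fold change of -1.58 ± 0.27 (adjusted p = 0.00231). A second probe set read 82.4, 66.2 and 42.0 in the tumours against 242 and 271, with -1.81 ± 0.24 (adjusted p = 5.70e-04). Tumour 3 was the lowest in both. These probe sets are on 430B, where the tumour 3 array also stood lowest over the shared probe sets, at -0.338 in log2 units. Every tumour lay below both cerebellum samples in both. The third probe set kept that order, at 73.7, 99.8 and 67.7 against 124 and 130, but its log2 fold change of -0.59 ± 0.20 did not pass (adjusted p = 0.0758). The value of the chosen probe set ran from -1.36 without tumour 3 to -1.69 without tumour 1 or 2, and passed throughout.

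The other delta-1 genes did not pass. Pcdh7 gave 0.28 ± 0.15 (adjusted p = 0.202) on 430A and -0.19 ± 0.29 (adjusted p = 0.723) on 430B, where the tumours spread from 44.1 to 115 around cerebellum values of 80.9 and 81.8. It was the only member with tested probe sets of opposite sign. Pcdh11x, on the X chromosome, gave 0.19 ± 0.18 (adjusted p = 0.575). Pcdh1, an epithelial and neural protocadherin, lay under the filter with 11.4 to 13.4 on the 5 arrays.

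The delta-2 protocadherins went both ways. Pcdh18, whose tail can bind the adaptor Dab1, was the largest rise of the representative probe sets. It read 67.6, 73.5 and 80.4 in the tumours against 19.5 and 7.32 in cerebellum, a log2 fold change of 1.64 ± 0.19 (adjusted p = 6.34e-05). A second probe set read 45.5, 29.0 and 38.6 against 12.5 and 14.5, with 0.85 ± 0.16 (adjusted p = 0.00205). The cerebellum means of these 2 probe sets, 13.4 and 13.5, lay under the 430A filter limit of 15.9. That limit applies to the mean over all arrays, so both came past it through the tumour values. One more, too dim to test, had the same order with 15.1, 8.77 and 16.6 against 3.49 and 4.78. The tumours lay above the cerebellum samples in all 3, and both tested probe sets passed with each array left out, the chosen one at 1.34 without cerebellum 2 to 1.94 without cerebellum 1.

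Pcdh17, which recruits the actin-building WAVE complex at axon contacts, fell. It read 38.5, 31.6 and 19.8 in the tumours against 66.6 and 79.98 in cerebellum, a log2 fold change of -0.98 ± 0.19 (adjusted p = 0.00603). A second probe set gave -0.60 ± 0.15 (adjusted p = 0.0227). Without cerebellum 2 the first was -0.87 (adjusted p = 0.0790, limma). The second did not pass without cerebellum 1, cerebellum 2 or tumour 2, at -0.69, -0.52 and -0.60 (adjusted p = 0.0796, 0.201 and 0.0769, limma). Pcdh10, which binds the same complex, was measured by 6 probe sets, all below 0, from -0.51 ± 0.18 (adjusted p = 0.0830) to -0.05 ± 0.16 (adjusted p = 0.868), and none passed. The 3 probe sets of Pcdh19, an X-linked epilepsy gene, ran from 0.03 ± 0.15 to 0.48 ± 0.17 (adjusted p = 0.933 and 0.0814), and Pcdh8 gave -0.10 ± 0.14 (adjusted p = 0.707).

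Of the other non-clustered protocadherins, Pcdh20 fell and Pcdh15 rose. Pcdh20 read 38.9, 14.8 and 42.7 in the tumours against 61.6 and 91.5 in cerebellum, with tumour 2 well below the other two, and its log2 fold change was -0.98 ± 0.27 (adjusted p = 0.0151). A dimmer, untested probe set had the same order, at 7.66, 8.24 and 9.69 against 17.8 and 20.3. The value was -0.74 without cerebellum 2 (adjusted p = 0.153, limma). Pcdh15, the partner of Cdh23 in the tip link, read 39.3, 38.3 and 20.3 in the tumours against 15.1 and 11.3 in cerebellum, a log2 fold change of 0.71 ± 0.19 (adjusted p = 0.0306). It passed without tumour 3 (0.91) and in no other fit that left out an array, where it lay between 0.61 and 0.81 with an adjusted p of 0.101 to 0.223. With no filter on low values the gene is represented by a 430A probe set at -0.08 (adjusted p = 0.828), and after scaling 430B on shared probe sets its value was 0.47 (adjusted p = 0.531). Pcdh12, an endothelial protocadherin, lay under the filter in all 3 of its probe sets.

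The clustered protocadherins were measured in unlike ways. The alpha cluster was read by probe sets that pool its genes, the beta cluster gene by gene and the gamma cluster by Pcdhgc4 alone. A difference between the clusters was therefore not tested. The alpha cluster joins 1 of many variable first exons to a constant region that all its transcripts share, and 3 tested probe sets each name all 14 alpha genes. All 3 were lower in the tumours. The brightest read 58.8, 69.9 and 105 in the tumours against 304 and 350 in cerebellum, a log2 fold change of -1.90 ± 0.23 (adjusted p = 9.36e-05). The others gave -1.01 ± 0.17 and -0.95 ± 0.16 (adjusted p = 8.41e-04 and 8.10e-04). Tumour 3 was the highest tumour in each, yet stayed far below both cerebellum samples, and all 3 passed with each array left out. Since they cannot be given to 1 gene, they do not say which alpha members fell. The other 3 multi-gene probe sets name 9 alpha genes each and were too dim to test, with no array above 17.4.

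The beta genes each have their own single exon, and 15 of 22 were tested. Only Pcdhb20 passed, and the median log2 fold change was -0.06 against -0.05 for all genes. Pcdhb20 read 22.0, 21.7 and 39.6 in the tumours against 49.9 and 45.8 in cerebellum, a log2 fold change of -0.57 ± 0.19 (adjusted p = 0.0395). It did not pass without cerebellum 1, cerebellum 2, tumour 1 or tumour 2, at -0.52, -0.62, -0.48 and -0.47 (adjusted p = 0.189, 0.131, 0.140 and 0.0652, limma). It also did not pass after quantile normalization, where it was -0.52 (adjusted p = 0.0590).

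Several beta genes shared a pattern in which tumours 1 and 2 were low and tumour 3 was near the cerebellum. Pcdhb21 read 63.2, 50.2 and 112 in the tumours against 110 and 103, and Pcdhb17 read 57.8, 37.6 and 81.8 against 84.0 and 78.8. Their log2 fold changes of -0.49 ± 0.26 and -0.42 ± 0.23 did not pass (adjusted p = 0.184 and 0.212), and without tumour 3 Pcdhb21 reached -0.76 (adjusted p = 0.0193, limma). Another Pcdhb21 probe set, on 430B, gave -0.07 ± 0.19 with overlapping groups (adjusted p = 0.853, limma). In Pcdhb9 tumour 3 was likewise the highest, at 54.7 against 39.3 and 22.7 in the other tumours and 29.0 and 32.3 in the cerebellum samples. These genes were singled out after their values were seen. The remaining 11 tested beta genes lay between -0.41 and 0.18. Of the gamma cluster only Pcdhgc4 was named alone, with 41.0, 41.0 and 35.7 in the tumours against 27.3 and 32.4 in cerebellum, a log2 fold change of 0.27 ± 0.14 that did not pass (adjusted p = 0.241).

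**Figure D3:**
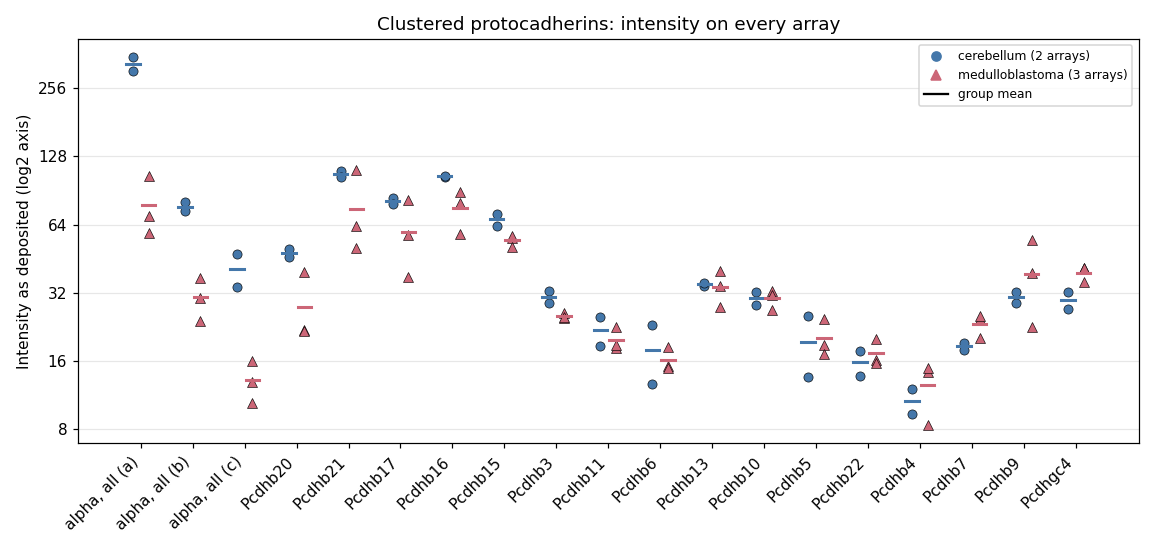
Intensity as deposited (vertical log2 axis) on each array for the 3 tested probe sets that name all alpha genes (a, b and c) and for the chosen probe set of each tested beta gene and Pcdhgc4; circles are the 2 cerebellum arrays, triangles the 3 medulloblastoma arrays and bars the group means. The alpha probe sets stand apart, with tumours at 58.8 to 105 against 304 and 350 in the brightest, while most beta genes overlap; heights are not comparable between probe sets.

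Probe sets of the same gene give a check within the family. Of 16 genes with more than 1 tested probe set, 5 passed in all of them, namely Cdh4, Cdh7, Cdh11, Pcdh17 and Pcdh18, and 8 passed in none. In the remaining 3, Cdh6, Cdh8 and Pcdh9, some passed and some did not, in the same direction. No gene had calls in both directions. The size varied more than the direction, as in Cdh4 (0.56 and 1.73) and Cdh7 (-0.92 to -2.65).

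Several members are neighbours in the genome, by their order in the RefSeq table. On chromosome 14, Pcdh17, Pcdh20 and Pcdh9 lie in a row with 2 protein-coding genes between the first pair and none between the second, and all 3 fell. Pcdh8, with 1 protein-coding gene between it and Pcdh17, did not pass. On chromosome 8, Cdh8 and Cdh11 are adjacent and both fell, while Cdh5, next to Cdh11, did not pass. On chromosome 1, Cdh7, which fell, is followed directly by Cdh19, which did not pass. Cdh20, which rose, lies 21 protein-coding genes before Cdh7. On chromosome 3, Pcdh10 and Pcdh18 have 1 gene between them, and the second alone rose. Cdh6, which fell, and Cdh10, which did not pass, lie on chromosome 15 with only the untested Cdh9 between them. Neighbours therefore did not all move alike, and no test of position was made.

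The 14 members under the filter on low values were Cdh1, Cdh3, Cdh9, Cdh17, Cdh18, Pcdh1, Pcdh12 and 7 beta genes. None had a probe set with a mean above 15.6. A further 37 of the 93 members in the reference table, among them Cdh12, Cdh24 and nearly all of the alpha and gamma genes, were not measured here by a probe set that names them alone.

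Of the 69 tested genes in 7 lists of partners, relatives and regulators, 8 rose (11.6%) and 13 fell (18.8%), shares near the 10.7% and 16% over all genes. Each gene is again given by 1 probe set, and 6 genes that did not pass by it had another that did. Of 10 tested catenins and plakophilins 3 fell and none rose, namely Pkp4, a plakophilin relative at junctions (-2.32 ± 0.20), Jup, the plakoglobin that can stand in for beta-catenin (-1.0 ± 0.21), and Ctnnb1, beta-catenin itself (-0.84 ± 0.16), with adjusted p = 9.03e-06, 0.00323 and 0.00161. Ctnnb1 depended on the probe set, since its 2 others gave 0.08 and 0.04 (adjusted p = 0.851 and 0.922). Ctnna1 and Ctnnd1, the alpha- and p120-catenin, gave 0.11 ± 0.19 and 0.16 ± 0.15 (adjusted p = 0.720 and 0.495). A 430B probe set of Ctnna1 was higher, at 0.88 ± 0.14 (adjusted p = 0.00134). Of 12 other adherens junction genes 1 rose and 1 fell. These were the adhesion molecule Nectin3 (0.81 ± 0.19, adjusted p = 0.00635), whose 5 other probe sets did not pass, and the actin linker Vcl (-0.48 ± 0.16, adjusted p = 0.0412). Limd1, Magi3 and Pard3 did not pass by the chosen probe set, but another probe set of each was higher, at 0.80, 1.24 and 0.75 (adjusted p = 0.00134, 0.00242 and 0.0119).

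Of 17 other members of the cadherin superfamily 5 fell and 1 rose. All 3 calsyntenins, cadherin-like proteins of synapses and axonal transport, fell, with Clstn3 at -2.38 ± 0.22, Clstn1 at -1.78 ± 0.23 and Clstn2 at -1.04 ± 0.14 (adjusted p = 1.23e-05, 1.30e-04 and 1.33e-04). Fat2, a giant cadherin of granule neurons, fell by 2.17 ± 0.20 on the log2 scale (adjusted p = 5.57e-05) and Fat1 by 1.05 ± 0.24 (adjusted p = 0.0128). Dchs1, a ligand of Fat4, rose (0.54 ± 0.15, adjusted p = 0.0305). Of 9 tested genes for partners of protocadherin tails 3 fell, all parts of the WAVE complex, Cyfip2 (-1.77 ± 0.27), Nckap1 (-1.27 ± 0.18) and Abi1 (-0.68 ± 0.19), with adjusted p = 4.32e-04, 2.25e-04 and 0.0196. Brk1, its smallest subunit, rose (0.56 ± 0.19, adjusted p = 0.0454). The other Cyfip2 probe sets gave -2.55 and 0.13 (adjusted p = 4.91e-05 and 0.655), and the other of Brk1 gave 0.37 (adjusted p = 0.226).

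Of 6 tested genes of cadherin proteolysis 1 rose and 1 fell, the gamma-secretase subunits Ncstn (0.67 ± 0.17, adjusted p = 0.00941) and Psen2 (-0.59 ± 0.16, adjusted p = 0.0155). Each had another probe set that did not pass. Of 9 regulators of the clustered protocadherin promoters only Smchd1, which silences them on chosen copies, rose (0.98 ± 0.29, adjusted p = 0.0444), and its other probe set gave -0.25 (adjusted p = 0.398). Ctcf, the insulator protein that loops these promoters to their enhancers, gave 0.27 ± 0.21 (adjusted p = 0.359). Among 6 tested repressors of Cdh1, 3 rose, namely Zeb1 (1.62 ± 0.24), Tcf3 (1.29 ± 0.17) and Zeb2 (1.26 ± 0.23), with adjusted p = 3.30e-04, 1.67e-04 and 0.00127. The other probe sets of Zeb1 and Tcf3 passed too, while of the 4 others of Zeb2 only 1 did, at 0.59 (adjusted p = 0.0178), and the rest lay between 0.31 and 0.64. Tcf4, another repressor, and Rad21, a cohesin subunit among the promoter regulators, passed only by a probe set other than the chosen one, at 0.74 and 0.64 (adjusted p = 0.0407 and 0.0471). The medians of the 7 lists lay between -0.24 and 0.85, beside -0.05 for all genes. With an array left out, the count of falls held at 3 for the catenins, ran from 4 to 6 for the superfamily and from 2 to 4 for the tail partners, and the count of risen repressors held at 3. Each count of 1 became 0 in some of these fits.

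**Figure D4:**
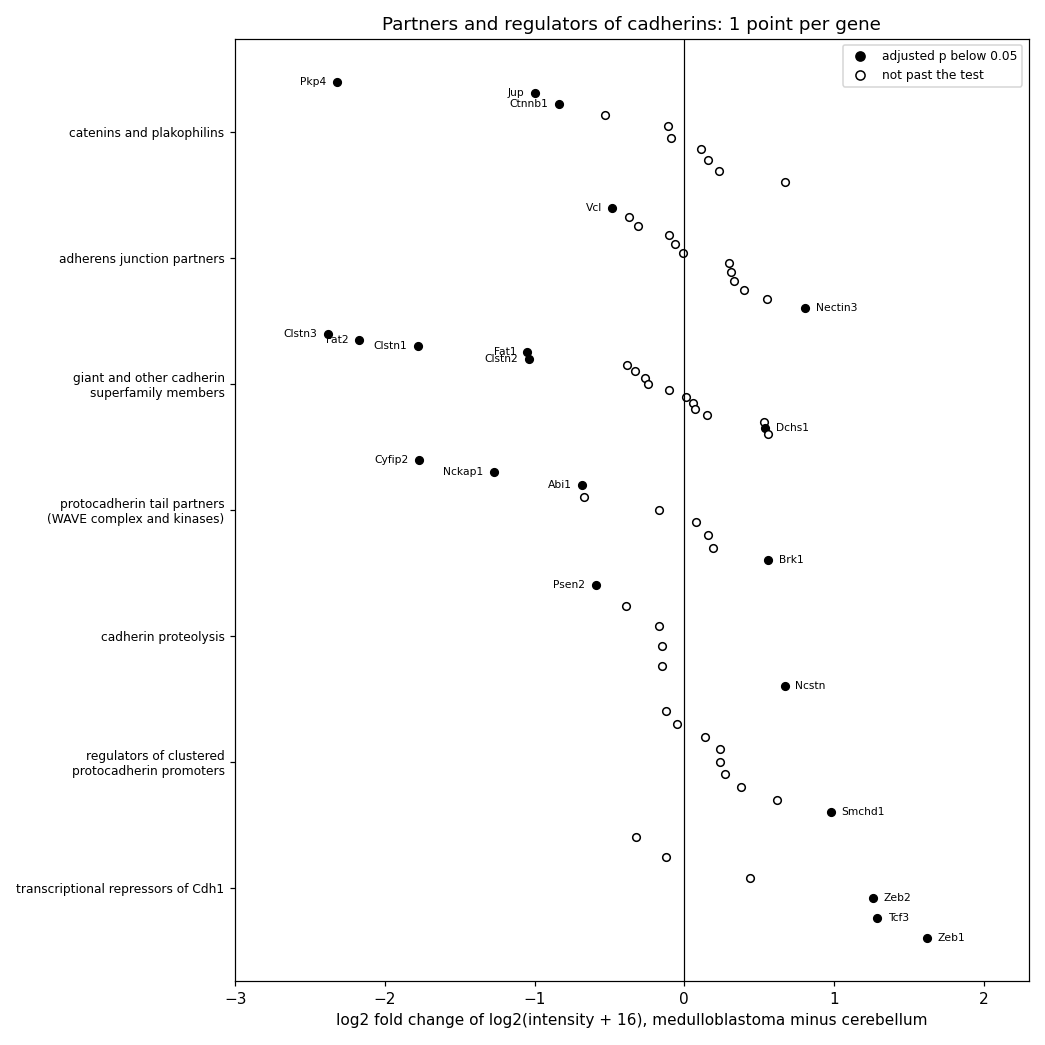
Log2 fold change (horizontal axis, medulloblastoma minus cerebellum on the log2(intensity + 16) scale) of each tested gene in 7 lists of partners and regulators, 1 point per gene, filled and named where the adjusted p is below 0.05. The falls reach -2.38 in Clstn3 and -2.32 in Pkp4, and Zeb1 lies farthest to the right at 1.62.

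Markers of several cell types differed between the groups, and no share of cells was measured. The summed intensity of 8 tested markers of mature granule neurons was 948 to 1391 in the tumours and 11233 to 12414 in the cerebellum samples, and all 8 fell. That of 5 Purkinje cell markers was 167 to 354 and 11044 to 13892, and all 5 fell. The 8 markers listed for dividing granule neuron precursors summed to 4420 to 5238 in the tumours and 219 to 485 in the cerebellum samples. All 8 rose, and Mki67, Top2a and Dcx among them are not particular to these cells. Of 8 markers of Bergmann glia and astrocytes 6 fell, and of 4 oligodendrocyte markers all 4 fell. Among 4 markers of oligodendrocyte precursors 3 rose, and among 6 of microglia 4 rose. None of the 63 tested marker genes was at 1 or below on any array. Some single values still lay under the filter limits of 15.9 on 430A and 11.3 on 430B, such as Top2a at 4.65 in cerebellum 2 and Lgi2 at 5.1 in tumour 3. These markers moved with the falls of Cdh7, Cdh8, Cdh22, Pcdh9 and the alpha cluster and with the rise of Pcdh18, and their part in those results was not tested.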

How the data were processed

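RNA was isolated with Trizol and labelled as biotinylated cRNA for Affymetrix chips, per the labels' protocols. The authors deposited linear intensity values, 1 for each probe set and array; for the software, scaling and background treatment, nothing is given in the sources used here. Sample titles gave the groups and replicate numbers. Values were taken as log2(intensity + 16), and the dimmest 25% of probe sets by mean were not tested. The chips were fitted separately (limma 3.58.1, R 4.3.3: lmFit, eBayes with an intensity trend, two-sided), adjusted by Benjamini-Hochberg over 16969 probe sets on 430A and 16883 on 430B. Probe sets were named by the platform annotation, matched to RefSeq for GRCm38.p6 by Entrez identifier. A gene is given by 1 tested probe set that names it alone: a 430A one first, then one not suffixed _s_at or _x_at, then that of the highest mean log2 value. Every member past the test is named, and in each partner list up to 3 genes past it by size of change; Clstn2, Fat1, Dchs1, Brk1, Ctnna1, Ctnnd1, Limd1, Magi3, Pard3, Rad21, Tcf4, Ctcf and Flt1 were named besides, after their values were seen. Members and lists were chosen with earlier results of these data known. The script was checked on simulated data. Precision is limited by the number of arrays. Alternatives covered the pseudocount, normalization, filter, trend, replicate block, each array left out and the probe set chosen.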

Additional observations from a re-analysis of the deposited data

How the results depend on the processing

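Of the 14 members past the test, 5 (Cdh7, Cdh8, Cdh22, Pcdh9 and Pcdh18) stayed past it under every processing setting and with each array left out, and 24 of the 28 others stayed below it. Pcdh15 turned from 0.71 to -0.08 with no filter on low values, since a dim 430A probe set then stands for the gene. Values of members below the threshold that changed sign, 24 in 12 genes and at most 0.22 in size, are not counted as reversed. With 1 array left out, the 430A counts were 2 to 4 higher and 3 to 7 lower, the 430B counts 1 to 3 and 6 to 11, and the gene counts 1 to 3 and 6 to 10. At an adjusted p below 0.01 the counts were 2 higher and 2 lower on 430A, 1 higher on 430B, and 1 higher and 5 lower by gene. With a log2 fold change of at least 1 they were 1 and 2 on 430A, 1 and 4 on 430B, and 1 and 4 by gene. Shares over all genes and probe sets under these alternatives are not given here, so the counts are not set against a background. With no filter, 1 probe set was higher on 430B and 2 genes were higher. With the dimmest 50% of probe sets left out, which tests fewer of them, 4 were lower on 430A and 1 higher on 430B. Scaling 430B on the shared probe sets, chosen after seeing the data, left 1 higher there. Where no cause is given, the cause was not tested. The labels do not tie equal numbers to the same mouse, so the numbers were not used as pairs. Deviations of same-numbered samples had r of -0.0287 and 0.17 on 430A and 0.114 and 0.0204 on 430B. These values cannot settle pairing, since tumour numbers do not match between the chips and the 2 cerebellum arrays deviate as mirror images. With the replicate number as a block, 3 members were higher and 12 lower by gene, with 3 higher and 9 lower on 430A and 3 and 11 on 430B. Number 3 exists only as a tumour, so the block takes up that array. The log2 fold changes then equal those without tumour 3, such as 1.59 for Pcdh18 and -0.92 for Cdh11. The 3 alpha cluster probe sets were lower in every one of these fits in which they were tested. Signals near the filter limit, at an intensity of 15.9 on 430A and 11.3 on 430B, limit what can be said of the dim members.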
